A study of Mus musculus with 2 samples.

Results

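The 10 genes described here encode integrin subunits, 7 alpha subunits (Itga1, Itga2, Itga3, Itga5, Itga6, Itga9 and Itgav) and 3 beta subunits (Itgb1, Itgb3 and Itgb4). They were found by symbol among the 31053 genes of the count matrices, and all 10 were present in both libraries. The cells were endothelial, from the ileum, the last stretch of the small intestine, and the mice were 8 weeks old, male, wild-type and of strain C57Bl/6. Cells lacking the epithelial marker EpCAM and the leukocyte marker CD45 were sorted on CD31, with PDPN (podoplanin) separating lymphatic (PDPN+) from blood (PDPN-) endothelial cells. The data are 2 droplet libraries of 3' transcript counts, called library 1 and library 2 below, which form a single untreated group. Whether each library stands for its own mouse is not stated, and the comparisons are between cell classes inside the libraries. With library as a term in the fit, p-values here cover how far class differences vary between these libraries. That variation may be technical, and a shift shared by all classes of a library is not part of it.

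Integrins are alpha-beta heterodimers that span the plasma membrane and anchor cells to the extracellular matrix. Which alpha subunit is present largely sets the ligand: some bind collagen, others laminin, and others fibronectin, vitronectin or tenascin. Inside the cell the beta tail is bound by talin and kindlin, which activate the receptor, and by adaptors such as the ILK, PINCH and parvin complex that link it to actin. Endothelial integrins are known for holding vessels on their basement membrane, for angiogenic sprouting and, in the case of Itga9, for the formation of lymphatic valves.

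Of 978 cells kept in library 1 and 6067 in library 2, 887 and 5572 fell into 5 classes set by raw UMIs (unique molecular identifiers, 1 per captured transcript) of 15 genes, none of them an integrin. Lymphatic cells had at least 5 UMIs of Mmrn1, Lyve1 and Prox1 together, and blood cells at least 5 of Flt1, Cd34, Plvap and Esam. Blood cells with at least 4 UMIs of Ackr1, Selp and Madcam1 were called venous and those with at least 3 of Sema3g, Fbln5 and Stmn2 arterial. The rest were capillary, either with more Plvap than Gpihbp1 and Aqp1 together (Plvap capillary) or not (Gpihbp1/Aqp1 capillary). The classes held 78 and 976 lymphatic, 70 and 267 venous, 147 and 883 arterial, 361 and 2362 Plvap capillary, and 231 and 1084 Gpihbp1/Aqp1 capillary cells in libraries 1 and 2. How the PDPN+ and PDPN- cells were combined for loading is not stated in the sources used here, so class shares are not compared. Median UMIs per cell ran from 2145 (lymphatic, library 2) to 5397 (venous, library 2), and 2 cell barcodes occurred in both libraries.

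Markers outside the class rule followed the class names, with 1 exception. The 6 lymphatic markers (Pdpn, Flt4, Ccl21a, Reln, Thy1 and Maf) summed to 13229 and 12262 CPM (UMIs of the gene per 1000000 UMIs of all genes in the class) in lymphatic cells, against 18.4 to 142 in the blood classes. Venous markers summed to 7827 and 6905 in venous cells and to at most 1922 in any other class. The exception was the blood list, which in venous cells (1837 and 2727) was lower than in lymphatic cells (2536 and 2304) in library 1 and higher in library 2. Markers of pericytes and smooth muscle, the contractile cells on the outside of vessels, summed to 0 and 11.6 CPM in lymphatic cells, 70.4 and 252 in venous, 182 and 364 in arterial, 37.4 and 78.3 in Plvap capillary, and 208 and 422 in Gpihbp1/Aqp1 capillary cells. Fibroblast markers summed to 3.94 and 29.6 in lymphatic, 3.06 and 109 in venous, and 18.0 and 434 in arterial cells. They summed to 16.5 and 166 in Plvap capillary and to 62.2 and 513 in Gpihbp1/Aqp1 capillary cells. In library 2, epithelial markers summed to 571 in Plvap capillary cells and red cell markers to 2518 in Gpihbp1/Aqp1 capillary cells.

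To set the classes' patterns beside the DNA at the genes, the 250 bases upstream of the start site are given for 3 members with different patterns (RefSeq, GRCm38.p6; 5′ to 3′ on the gene's strand; matches to the searched motifs in capitals). Itgav was highest in lymphatic cells, Itga1 in Gpihbp1/Aqp1 capillaries, and Itgb1 was the member with the smallest ratio between its highest and lowest class.
Itgav (chr2:83724147-83724396, + strand): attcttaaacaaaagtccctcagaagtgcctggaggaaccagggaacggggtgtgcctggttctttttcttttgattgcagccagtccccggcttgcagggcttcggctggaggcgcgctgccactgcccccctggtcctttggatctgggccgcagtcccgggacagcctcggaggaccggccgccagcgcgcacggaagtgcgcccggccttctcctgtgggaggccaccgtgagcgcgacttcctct
Itga1 (chr13:115101965-115102214, - strand): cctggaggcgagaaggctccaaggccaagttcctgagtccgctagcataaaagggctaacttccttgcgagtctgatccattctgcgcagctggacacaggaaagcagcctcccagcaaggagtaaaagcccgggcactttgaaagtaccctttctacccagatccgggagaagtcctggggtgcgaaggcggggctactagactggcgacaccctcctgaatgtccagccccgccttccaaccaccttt
Itgb1 (chr8:128685404-128685653, + strand): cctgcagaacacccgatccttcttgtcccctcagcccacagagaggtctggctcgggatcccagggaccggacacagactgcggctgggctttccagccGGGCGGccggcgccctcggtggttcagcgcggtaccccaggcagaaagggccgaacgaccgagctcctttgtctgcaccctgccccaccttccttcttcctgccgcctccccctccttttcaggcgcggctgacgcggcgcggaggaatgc
Their GC contents were 64.4%, 57.6% and 68%, against a median of 52.4% over all 32851 RefSeq windows of this length. A GC box (GGGCGG, searched on both strands) lay 146 bases upstream of the Itgb1 start, and 32.7% of all windows held one. The form of the ETS core searched (CCGGAA, in 12.0% of all windows), a TATA box (TATAAA, in 12.4%) and a nuclear receptor element (AGGTCA, in 14.0%) had no match on either strand of the 3 windows. Other forms of the ETS core were not searched. RefSeq windows matched 7 of the 10 members.

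Levels are given on the CPM scale as above, library 1 first and library 2 second. Differences are log2 differences with their standard errors (SE) from edgeR's quasi-likelihood test on the 10 sums of 2 libraries and 5 classes, and a gene passed at a Benjamini-Hochberg adjusted p under 0.05 over all genes. Because a transcript's sequence at the 3' end affects its count, levels are compared between classes and not between genes.

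**Figure D1:**
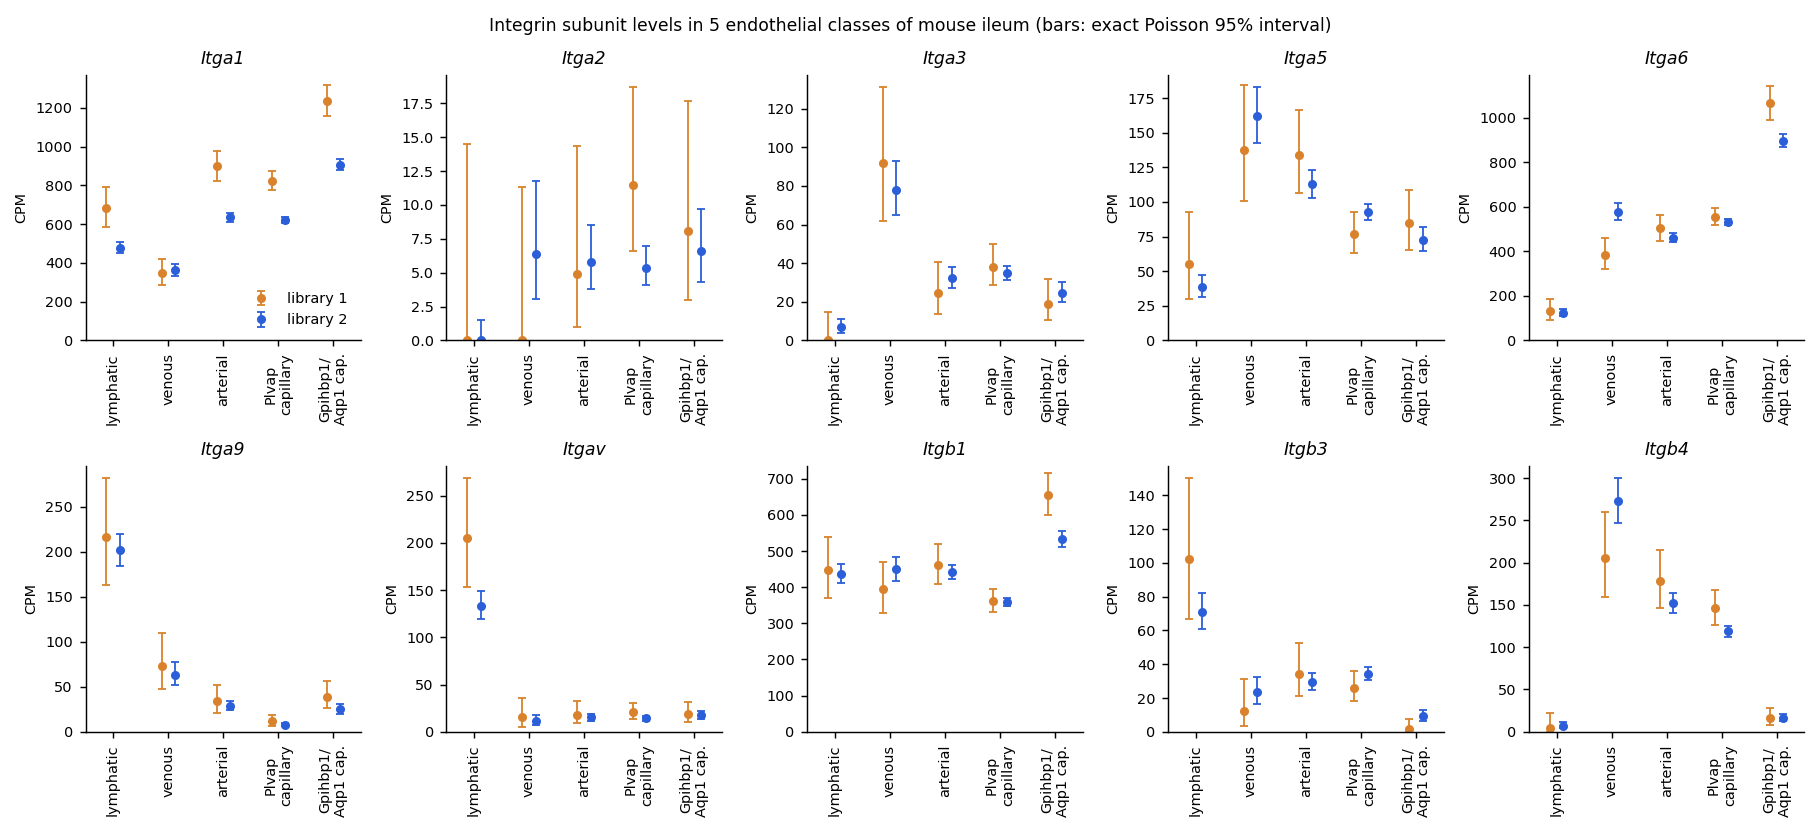
Level of each integrin subunit (CPM, linear axis from 0) in 5 endothelial classes, in library 1 (orange) and library 2 (blue), with exact Poisson 95% intervals that cover counting error only. Itga9, Itgav and Itgb3 are highest in lymphatic cells, Itga3 and Itgb4 in venous cells, and Itga1, Itga6 and Itgb1 in Gpihbp1/Aqp1 capillary cells.

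Lymphatic cells differed from blood endothelial cells in the levels of most members. Against the mean of the 4 blood classes, 9 of the 10 members passed, where 51.2% of all 10588 genes tested did. Itgav, Itga9 and Itgb3 were higher in lymphatic cells (25.2% of all genes were), and Itga1, Itga2, Itga3, Itga5, Itga6 and Itgb4 were lower (26.1% of all genes were). Itgb1 did not pass. The median log2 difference of the members was -0.92, beside 0.01 over all genes.

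Against single blood classes, lymphatic cells kept 3 higher members, with Itga1 added against venous cells. In lymphatic against venous cells 9 members passed (40.3% of all genes), 4 higher (18.5%) and 5 lower (21.9%). Against arterial cells 9 passed (46.1%), 3 higher (21.6%) and 6 lower (24.5%), and against Plvap capillary cells 9 passed (51.2%), 3 higher (24.7%) and 6 lower (26.5%). Against Gpihbp1/Aqp1 capillary cells all 10 passed (46.4%), 3 higher (22.6%) and 7 lower (23.8%).

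Among blood classes fewer members passed. In venous against arterial cells 5 did (21.6% of all genes), 4 higher (11.5%) and Itga1 lower (10.1%). In venous against Plvap capillary cells 6 did (22.2%), 5 higher (12.2%) and Itga1 lower (10%), and in venous against Gpihbp1/Aqp1 capillary cells 7 did (27.8%). Arterial and Plvap capillary cells differed in 1 member (13.1% of all genes), which was higher in arterial cells (7.63% of all genes were, and 5.44% were lower). That count rose to between 2 and 5 in 6 other settings. Arterial and Gpihbp1/Aqp1 capillary cells differed in 5 (16.5%), 3 higher (9.44%) and 2 lower (7.06%), and the 2 capillary classes in 7 (25.2%). The comparisons share sums, so their counts are not independent of each other.

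**Figure D2:**
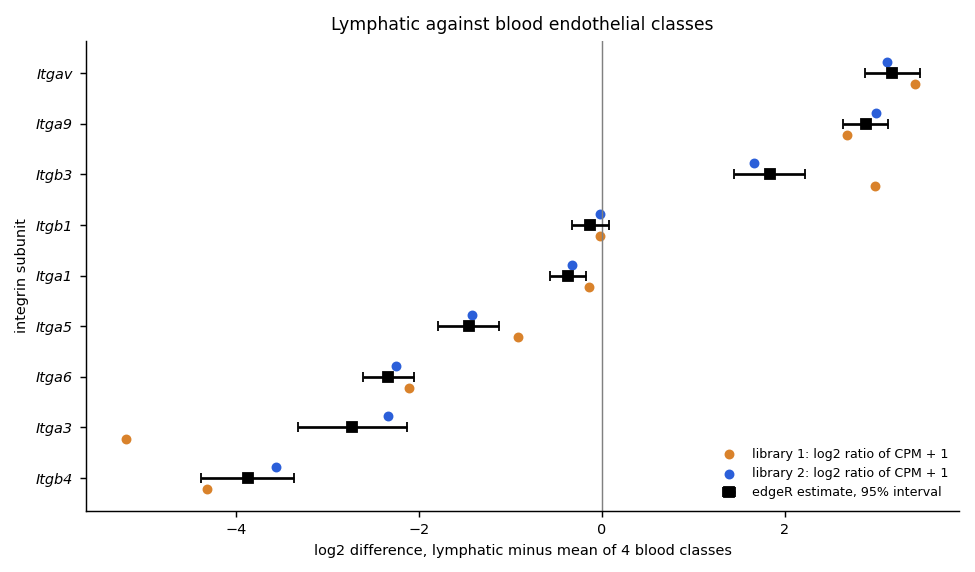
Log2 difference of each integrin subunit between lymphatic cells and the mean of the 4 blood classes, with the edgeR estimate and its 95% interval (black) and the unscaled log2 ratio of each library (orange and blue). Itgav, Itga9 and Itgb3 lie above 0 in both libraries, and Itgb4, Itga3, Itga6 and Itga5 lie below 0 in both. Itga2 is left out because it had no UMI in lymphatic cells.

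Itga1 and Itga2 encode the alpha subunits of collagen receptors, which pair with Itgb1. Itga1 (chr13:114953096-115101964, - strand) was present in every class and highest in Gpihbp1/Aqp1 capillary cells, at 1238 and 907 CPM. Its level was 899 and 637 in arterial, 825 and 621 in Plvap capillary, 681 and 479 in lymphatic, and 349 and 363 in venous cells. Library 1 read higher than library 2 in 4 of the 5 classes, so ranges overlapped across libraries, while both libraries had the same highest and the same lowest class.

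The step from arterial to Plvap capillary cells in Itga1 did not pass (adjusted p = 0.92), and the other 9 of its 10 class pairs did. Between venous and Gpihbp1/Aqp1 capillary cells the log2 difference was -1.26 ± 0.12 (adjusted p = 2.70e-12), and the unscaled ratios were -1.82 in library 1 and -1.32 in library 2. Lymphatic cells stood 1.30-fold below the mean of the blood classes, a log2 difference of -0.37 ± 0.10 (adjusted p = 0.0015). That call was lost without library as a term (adjusted p = 0.088), as were the calls against arterial (0.056) and Plvap capillary cells (0.077), and those of arterial (0.32) and Plvap capillary (0.17) against Gpihbp1/Aqp1 capillary cells. The unscaled ratio to the blood classes was -0.14 in library 1 and -0.32 in library 2. The small excess over venous cells (log2 difference 0.36 ± 0.13, adjusted p = 0.023) failed in 4 settings, DESeq2 among them (0.088). DESeq2 also lost the call of Itga1 in arterial against Gpihbp1/Aqp1 capillary cells (0.12). Exons of Itga1 overlap those of Gm49395 on the same strand, so its count is uncertain by what the counting gave to either gene.

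Itga1 is also a gene of pericytes and smooth muscle, whose 8 markers summed highest in the class where Itga1 was highest. Without cells carrying 3 or more UMIs of other cell types' markers, the log2 difference of Itga1 between the 2 capillary classes was -0.47, against -0.44 ± 0.11 with them. Between venous and Gpihbp1/Aqp1 capillary cells it was -1.31 without such cells.

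Itga2 (chr13:114833081-114932100, - strand) was at the edge of detection. Lymphatic cells had no UMI in either library, which allows up to 11.8 and 1.20 CPM at 3 counts a library. Levels were 11.5 and 5.38 CPM in Plvap capillary, 8.11 and 6.61 in Gpihbp1/Aqp1 capillary, 4.91 and 5.81 in arterial, and 0 and 6.39 in venous cells. The pooled level was set against 3 counts over all lymphatic cells. It was 4.86-fold higher in venous, 5.24-fold in arterial, 5.60-fold in Plvap capillary and 6.29-fold in Gpihbp1/Aqp1 capillary cells. These ratios leave out the counting error of the blood levels, so they are not lower bounds. The venous level rests on 10 UMIs, all in library 2. All 4 lymphatic comparisons passed (adjusted p from 7.02e-05 to 0.0016), and none of the 6 pairs of blood classes did. In library 1 every blood level lay below the 11.8 CPM floor of lymphatic cells, so library 1 alone shows no difference.

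Itga3, Itga6 and Itgb4 belong to the laminin receptors. Itga3 pairs with Itgb1, Itga6 pairs with Itgb1 or Itgb4, and Itgb4 is best known from the hemidesmosomes of epithelia, where it is tied to the intermediate filaments by plectin. All 3 were lowest in lymphatic cells.

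Itgb4 (chr11:115974709-116008412, + strand) had the widest range of the 9 members detected in every class, with a 42.9-fold ratio between the mean levels of its highest and lowest class. It reached 205 and 272 CPM in venous, 178 and 152 in arterial, and 146 and 119 in Plvap capillary cells. It stood at 16.2 and 16.5 in Gpihbp1/Aqp1 capillary cells and at 3.94 (1 UMI) and 7.20 in lymphatic cells. The 3 higher classes did not overlap with the 2 lower ones in either library. The log2 difference between Plvap and Gpihbp1/Aqp1 capillary cells was 3.07 ± 0.19 (adjusted p = 1.28e-19), an 8.42-fold difference inside the capillaries, with 3.09 in library 1 and 2.77 in library 2.

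At a common depth of 1000 UMIs a cell, 15.9% and 10.9% of Plvap capillary cells had an Itgb4 UMI, against 1.32% and 1.12% of Gpihbp1/Aqp1 capillary cells and 1.33% and 0.33% of lymphatic cells. Without thinning the shares were 38.8% and 35.3%, 3.90% and 4.70%, and 1.28% and 1.74%. Median depths were 3688 and 4166 UMIs in Plvap capillary, 2999 and 3274 in Gpihbp1/Aqp1 capillary, and 2894 and 2145 in lymphatic cells. Itgb4 was lower in lymphatic than in Gpihbp1/Aqp1 capillary cells by -1.22 ± 0.38 on the log2 scale (adjusted p = 0.0066). This direction turned to 0.43 (adjusted p = 0.22) when cells meeting both the lymphatic and the blood rule were kept as lymphatic. Exons of Itgb4 overlap those of B230344G16Rik on the opposite strand, and the sources used here do not state whether counting used strand.

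Itga6 (chr2:71745616-71858416, + strand) followed another order, with its highest level in Gpihbp1/Aqp1 capillary cells (1064 and 896 CPM). It was at 554 and 530 in Plvap capillary, 502.5 and 462 in arterial, and 386 and 577 in venous cells, and these 3 classes did not differ beyond their spread (adjusted p from 0.25 to 0.94). Lymphatic cells had 134 and 125, below every blood class in both libraries. Against the mean of the blood classes the log2 difference was -2.33 ± 0.14 (adjusted p = 1.05e-16), a 5.04-fold lower level, and the unscaled ratios were -2.11 and -2.25. Gpihbp1/Aqp1 capillary cells therefore had the most Itga6 and, among blood classes, the least Itgb4.

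Itga3 (chr11:95044474-95076801, - strand) was highest in venous cells, at 91.8 and 78.0 CPM. It stood at 38.1 and 34.8 in Plvap capillary, 24.6 and 32.4 in arterial, 18.9 and 24.7 in Gpihbp1/Aqp1 capillary, and 0 and 6.80 in lymphatic cells. The log2 difference between venous cells and Plvap capillary cells, the next class down, was 1.30 ± 0.20 (adjusted p = 9.08e-07). Arterial cells did not differ from either capillary class (adjusted p = 0.55 and 0.17). Against the mean of the blood classes lymphatic cells were lower by -2.73 ± 0.30 on the log2 scale (adjusted p = 4.94e-11). In library 2 alone the unscaled ratio was -2.34, and in library 1, where no UMI was seen among 78 lymphatic cells, it was -5.20.

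Itga5, Itgav and Itgb3 encode subunits of receptors for fibronectin and vitronectin that recognise the RGD tripeptide. Itga5 pairs with Itgb1 as the main fibronectin receptor, and Itgav pairs with Itgb3 as the vitronectin receptor known from growing vessels.

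Itga5 (chr15:103344286-103366763, - strand) was highest in venous cells at 138 and 162 CPM, then arterial cells at 134 and 113. Plvap capillary cells had 76.9 and 92.4, Gpihbp1/Aqp1 capillary cells 85.1 and 72.7, and lymphatic cells 55.1 and 38.8. Every blood class was above the lymphatic class of its own library. Against the mean of the blood classes the log2 difference was -1.46 ± 0.17 (adjusted p = 1.61e-10), with unscaled ratios of -0.92 in library 1 and -1.42 in library 2. Neighbouring blood classes were close: arterial against Plvap capillary cells (adjusted p = 0.056) and Plvap against Gpihbp1/Aqp1 capillary cells (0.090) did not pass. Venous cells passed against arterial cells (log2 difference 0.54 ± 0.16, adjusted p = 0.0085), but library 1 alone gave 0.04, library 2 alone 0.52, and the call was lost in 6 settings, DESeq2 among them (0.23).

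Itgav (chr2:83724397-83806916, + strand), whose upstream sequence is printed above, separated lymphatic cells from all others. It stood at 205 and 134 CPM in lymphatic cells. The blood classes lay between 11.5 and 20.9 in all 8 sums, and none of their 6 pairs passed (adjusted p from 0.58 upwards). Against their mean the log2 difference was 3.17 ± 0.15 (adjusted p = 1.15e-24), a 9.02-fold higher level, with 3.42 in library 1 and 3.12 in library 2. Exons of Itgav overlap those of Gm13684 on the opposite strand.

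Itgb3 (chr11:104608000-104670476, + strand) was also highest in lymphatic cells, at 102 and 71.2 CPM. Arterial cells had 34.4 and 29.3, Plvap capillary cells 25.9 and 34.4, and venous cells 12.2 (4 UMIs) and 23.7, 3 classes that did not differ beyond their spread (adjusted p from 0.27 to 0.81). Gpihbp1/Aqp1 capillary cells had the least, 1.35 (1 UMI) and 9.15. Against the mean of the blood classes the log2 difference was 1.83 ± 0.20 (adjusted p = 6.00e-11), with 2.98 in library 1 and 1.66 in library 2. Inside the capillaries Plvap cells exceeded Gpihbp1/Aqp1 cells 4.59-fold (adjusted p = 2.38e-08), with unscaled log2 ratios of 3.52 in library 1, which held the lone UMI, and 1.80 in library 2. Itgb3 is also a platelet integrin, and the 3 platelet markers Pf4, Ppbp and Gp9 had no UMI in lymphatic cells of library 1 and summed to 4 UMIs in those of library 2.

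Itga9 (chr9:118606690-118901003, + strand) pairs with Itgb1 and binds tenascin-C, osteopontin and EMILIN1. Its level was 217 and 202 CPM in lymphatic, 73.5 and 63.3 in venous, 39.2 and 24.9 in Gpihbp1/Aqp1 capillary, 34.4 and 28.6 in arterial, and 11.5 and 7.58 in Plvap capillary cells. The order was the same in both libraries except for Gpihbp1/Aqp1 capillary and arterial cells, the 1 pair of 10 that did not differ beyond its spread (adjusted p = 0.66). Lymphatic cells exceeded the mean of the blood classes by 2.88 ± 0.13 on the log2 scale (adjusted p = 1.44e-26), with 2.68 and 2.99 in the libraries, and Plvap capillary cells by 4.51 ± 0.18 (9.88e-28), a 22.7-fold difference. Venous cells were second, 2.68-fold below lymphatic cells and 2.44-fold above arterial cells (adjusted p = 1.68e-09 and 3.20e-06). With equal numbers of cells from each library, the venous and arterial difference no longer passed (0.063).

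At 1000 UMIs a cell, 21.3% and 18.6% of lymphatic cells had an Itga9 UMI, against 1.13% and 0.64% of Plvap capillary cells. Unthinned shares were 47.4% and 34.3% against 3.60% and 3.18%. Itga9 is also expressed by smooth muscle, whose markers were at or near 0 in lymphatic cells. Among blood classes these markers, like Itga9, were lowest in Plvap capillary cells. Venous cells had lower marker sums than arterial cells and more Itga9. Without cells carrying markers of other types the lymphatic excess over the blood classes was 2.86 on the log2 scale. The Itga9 difference was then 1.76 for arterial against Plvap capillary cells and -1.59 for Plvap against Gpihbp1/Aqp1 capillary cells. Whether smooth muscle transcripts add to the differences between blood classes was not tested.

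Itgb1 (chr8:128685654-128733200, + strand), the beta partner of most of these alpha subunits, was the most even member. It stood at 655.5 and 533 CPM in Gpihbp1/Aqp1 capillary, 462 and 441 in arterial, 449 and 437 in lymphatic, 395 and 450 in venous, and 361 and 360 in Plvap capillary cells. The ratio between the means of the highest and lowest class was 1.65. The log2 difference between lymphatic cells and the mean of the blood classes was -0.13 ± 0.10, with a 95% interval from -0.33 to 0.07 (adjusted p = 0.31). Of its 10 class pairs 3 passed: Plvap against Gpihbp1/Aqp1 capillary cells (-0.57 ± 0.11, adjusted p = 5.66e-05), lymphatic against Gpihbp1/Aqp1 capillary cells (-0.39 ± 0.12, 0.0071) and venous against Plvap capillary cells (0.37 ± 0.12, 0.019). The last was lost in 5 settings, DESeq2 among them (0.13), and the second without library as a term (0.075).

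**Figure D3:**
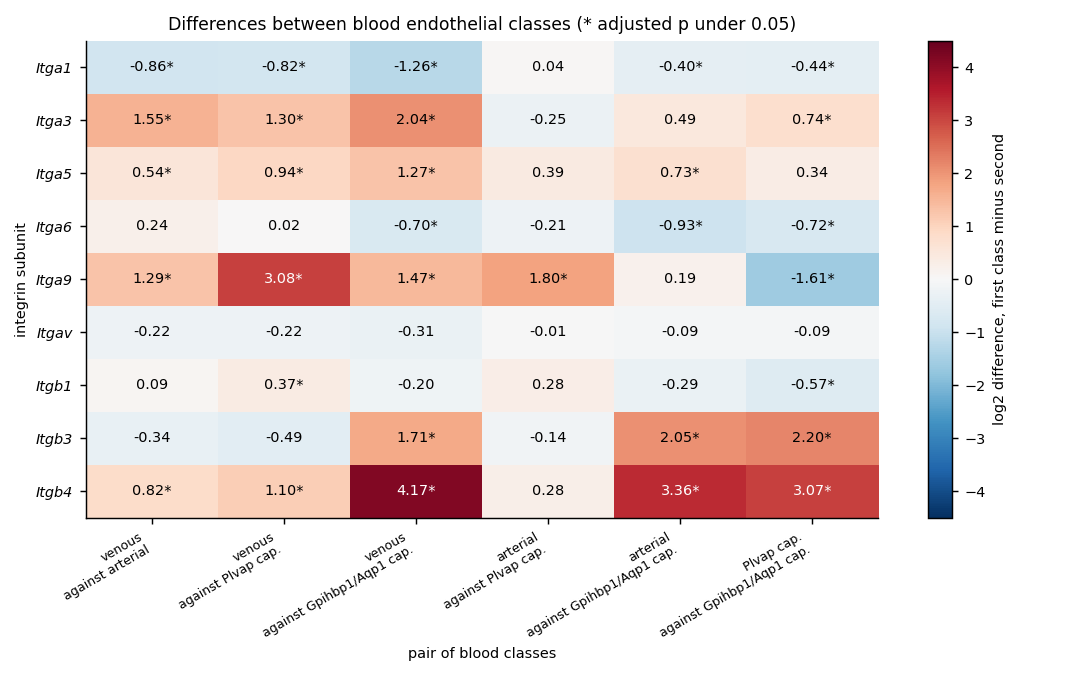
Log2 difference of each integrin subunit between pairs of blood classes, first class minus second (red higher in the first, blue lower), with an asterisk where edgeR's adjusted p is under 0.05. Itgb4 and Itgb3 are lower in Gpihbp1/Aqp1 capillary cells than in each other blood class, Itga1 and Itga6 are higher there than in each, and Itgav passes in none of the 6 pairs. Itga2 is left out because it had no UMI in venous cells of library 1.

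Between the capillary classes, the split therefore ran in both directions: Itgb4, Itgb3 and Itga3 were higher in Plvap cells (13.5% of all genes were), and Itga1, Itga6, Itga9 and Itgb1 were higher in Gpihbp1/Aqp1 cells (11.7% of all genes were). Itga3 differed by 0.74 ± 0.21 on the log2 scale (adjusted p = 0.0053), a call that DESeq2 did not make (0.12) and that was lost without library as a term (0.056). The Itga9 difference was -1.61 ± 0.23 (adjusted p = 7.65e-08). Venous cells were higher than Gpihbp1/Aqp1 capillary cells in Itga3, Itga5, Itga9, Itgb3 and Itgb4 (15.4% of all genes were) and lower in Itga1 and Itga6 (12.4% were). The largest of these differences was in Itgb4, 4.17 ± 0.19 on the log2 scale. Of the members, Itga9 passed between arterial and Plvap capillary cells, higher in arterial cells by 1.80 ± 0.22 (adjusted p = 5.18e-09). Itga5 passed there too in 6 other settings, among them the one without cells carrying markers of other types (log2 difference 0.41, adjusted p = 0.049). With doubled class thresholds Itga5, Itga6, Itgb1 and Itgb4 all passed.

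Of 2 splits inside a class that had enough cells to test, 1 had a member that passed. The sides were set by raw UMIs and differed in depth. Median UMIs were 4411.5 and 4525 in Plvap capillary cells with Esm1, against 3327 and 3871 in those without. Plvap capillary cells with an Esm1 UMI (138 and 1061 cells; Esm1 is a marker of sprouting tip cells) had 103 and 98.4 CPM of Itgb4, against 180 and 138 in those without (223 and 1301 cells). The log2 difference was -0.55 ± 0.10 (adjusted p = 0.00053), lower in both libraries, and 1 of 10 members passed, where 2.12% of 10394 genes did. DESeq2 and the fit without library as a term called none of the 10 members there. Itgb3 stood at 35.9 and 39.5 with Esm1 and at 18.0 and 29.5 without (log2 difference 0.50 ± 0.18, adjusted p = 0.23). In lymphatic cells with at least 2 UMIs of Gbp2 and Gbp4, genes induced by interferon-gamma, 0 of 7 tested members passed by edgeR (1.19% of 7898 genes did), 0 had an unadjusted p under 0.05, and DESeq2 called 0. Median UMIs were 4300 and 2548.5 in these cells, against 2427 and 1895.5 in the other lymphatic cells.

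An integrin needs both subunits in the same cell, so known pairs were counted in cells thinned to 1000 UMIs. Counts of cells with both UMIs lay near the product of the single shares for most pairs. In Gpihbp1/Aqp1 capillary cells of library 2, 276 of 1073 cells had both Itga6 and Itgb1, where the product gives 266, and in lymphatic cells of library 2, 55 of 911 had both Itga9 and Itgb1, where it gives 56.0. Itga6 and Itgb4 occurred together in 28 and 96 Plvap capillary cells (23.3 and 99.0 by the product) and in no lymphatic cell. Itgav and Itgb3 occurred together in 2 of 75 and 13 of 911 lymphatic cells, where the product gives 0.88 and 7.10. They occurred together in no cell of any blood class, where the product gives at most 1.15 in any of the 8 sums. These counts describe detection at this depth and do not show which cells lack a subunit.

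Of the 16 other integrin subunit genes listed, 2 had enough counts to test. Both were lower in lymphatic cells than in the mean of the blood classes, beside 26.1% of all genes. Itgb5 stood at 7.87 and 5.60 CPM in lymphatic cells and at a mean of 32.9 and 31.0 over the blood classes (log2 difference -2.29 ± 0.34, adjusted p = 7.15e-08). Venous cells, with 3.06 and 13.4, lay below the lymphatic level in library 1 and above it in library 2, and Itgb5 did not pass between these 2 classes. Itga2b, a platelet and megakaryocyte subunit, stood at 3.94 and 0.40 against 6.33 and 6.49. Both lymphatic values lie below the 11.8 and 1.20 CPM that 3 counts give in these cells. In library 1 the blood mean lies below that floor too, so library 1 alone shows no difference.

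Among 26 activators and adhesion adaptors, 23 were tested, of which 5 were higher and 12 lower in lymphatic cells, beside 25.2% and 26.1% of all genes. Their median log2 difference was -0.38, beside 0.01 over all genes. The PINCH adaptors, which join ILK and parvin to the integrin tail, ran in opposite directions. Lims1 (PINCH1) stood at 394 and 293 CPM in lymphatic cells and at 109 and 97.2 over the blood classes (log2 difference 1.58 ± 0.11, adjusted p = 1.42e-18). Lims2 (PINCH2) stood at 0 and 6.00 against 230 and 198 (-5.06 ± 0.24, adjusted p = 1.39e-24), and among blood classes it was highest in Gpihbp1/Aqp1 capillary cells, at 465 and 382. Parva, an alpha parvin, was higher in lymphatic cells (154 and 155 against 51.3 and 55.8), and Fermt2, the kindlin of most adherent cells, was lower (138 and 126 against 357 and 346). Tln1, which encodes talin, stood at 213 and 136 in lymphatic cells and between 146 and 253 in the blood classes.

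Between single classes other genes of this list had the largest differences that passed. Tns1, a tensin that links integrin tails to actin, was higher in lymphatic (988 and 665 CPM) than in venous cells (239 and 150). Tln2, the second talin gene, was low in Plvap capillary cells (20.1 and 10.7), with 61.2 and 37.7 in venous, 78.6 and 44.9 in arterial, and 89.2 and 66.6 in Gpihbp1/Aqp1 capillary cells. Tns3, another tensin, ran the other way in the capillaries, at 15.8 and 18.1 in Plvap and 2.70 and 6.10 in Gpihbp1/Aqp1 cells. It was also higher in Plvap capillary than in arterial cells (14.7 and 5.81), though the 2 classes were close in library 1. The Kank genes encode adaptors that bind talin. Kank1 was higher in venous cells (24.5 and 33.9) than in arterial (21.3 and 11.8) and Gpihbp1/Aqp1 capillary cells (17.6 and 10.4), and Kank3 was lower in arterial (193 and 196) than in Gpihbp1/Aqp1 capillary cells (539 and 427). Plec, which encodes the plectin that binds Itgb4, was higher in arterial (388 and 345) than in Gpihbp1/Aqp1 capillary cells (243 and 224). Cib1 was lower in venous (24.5 and 19.2) than in Plvap capillary cells (38.8 and 36.6). Plvap capillary cells with Esm1 had more Tns3 than those without (log2 difference 1.05 ± 0.26, adjusted p = 0.013).

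**Figure D4:**
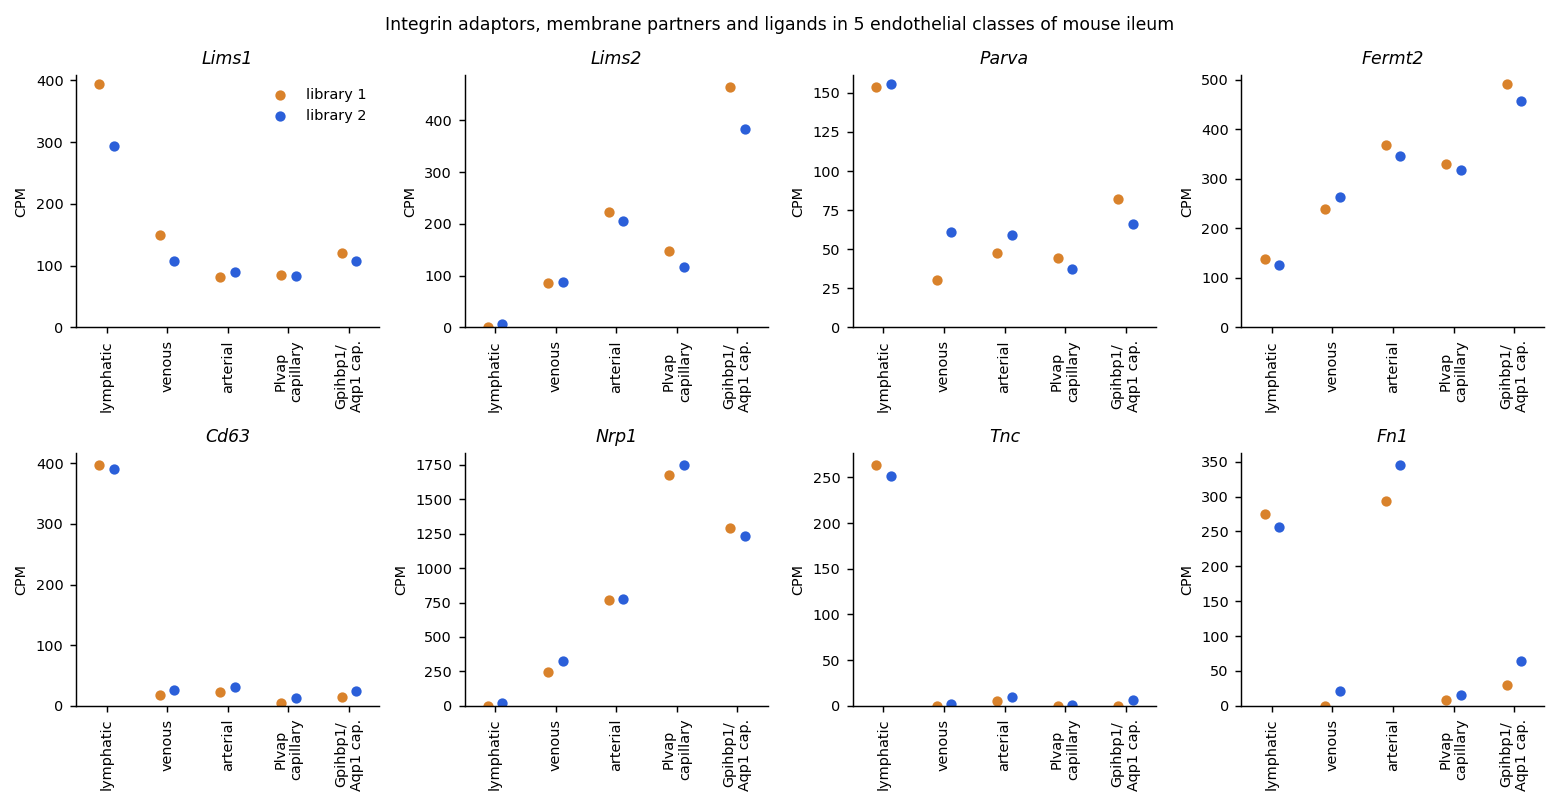
Levels (CPM, linear axes from 0) of 8 genes that work with integrins in 5 endothelial classes, with 1 point per library (library 1 orange, library 2 blue). Lims1, Parva, Cd63 and Tnc are highest in lymphatic cells, Lims2 and Nrp1 are at or near 0 there, and Fn1 is highest in arterial and then lymphatic cells.

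All 12 membrane partners of integrins were tested, and 7 were higher and 3 lower in lymphatic cells, beside 25.2% and 26.1% of all genes (median log2 difference 0.45, against 0.01 over all genes). The tetraspanins Cd63 and Cd82, which organise integrins in the membrane, were higher: Cd63 stood at 398 and 391 CPM against 15.3 and 23.3, and Cd82 at 102 and 44.4 against 18.2 and 8.54. The tetraspanin Cd81 was lower, at 134 and 191 against 786 and 917. Nrp1, a VEGF co-receptor that also binds integrins and is 1 of the blood markers above, stood at 0 and 19.2 against 995 and 1022. All 4 passed (adjusted p of 5.78e-15 or less). Among blood classes the tetraspanin Cd9 was highest in venous cells (756 and 960 CPM, against 291 to 669 in the others). Cav1, the caveolin of endothelial caveolae, was highest in Gpihbp1/Aqp1 capillary cells (1676 and 1480, against 734 and 633 in Plvap capillary cells). Slc3a2, an amino acid transporter chain that binds beta tails, was higher in Plvap (429 and 566) than in Gpihbp1/Aqp1 capillary cells (278 and 435). With Esm1, Plvap capillary cells had more Nrp1 (log2 difference 0.45 ± 0.05) and less Cd63 (-1.36 ± 0.31).

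Of 26 matrix ligands 25 were tested, and 9 were higher and 13 lower in lymphatic cells, beside 25.2% and 26.1% of all genes (median log2 difference -0.36, against 0.01 over all genes). Tnc, which encodes the Itga9 ligand tenascin-C, stood at 264 and 251 CPM in lymphatic cells and at 9.16 or less in every blood sum (log2 difference 6.39 ± 0.19, adjusted p = 3.29e-30). Postn (periostin) stood at 27.6 and 68.0 in lymphatic cells, at 0 in venous cells, and at 36.5 and 18.6 in Gpihbp1/Aqp1 capillary cells. Fn1, which encodes the fibronectin bound by Itga5, stood at 293 and 345 in arterial cells against 7.91 and 15.3 in Plvap capillary cells (4.57 ± 0.23, adjusted p = 1.58e-10), while Itga5 did not pass between these classes (0.056), though it did in the 6 settings given above. Lymphatic cells had 276 and 256 of Fn1, and Itga5 was at its lowest there. Npnt (nephronectin) stood at 0 and 0.80 in lymphatic cells and at 73.7 and 79.5 in arterial cells. Col6a1, a chain of collagen VI, stood at 0 and 0.80 in lymphatic cells and at 18.9 and 29.7 in Gpihbp1/Aqp1 capillary cells (log2 difference to the mean of the blood classes -4.21 ± 0.66, adjusted p = 2.91e-07). The fibroblast marker sums were also highest in Gpihbp1/Aqp1 capillary cells, at 62.2 and 513. Whether fibroblast transcripts account for the Col6a1 difference was not tested. Col8a1, a collagen VIII chain, was arterial, at 39.3 and 46.9 against 0 and 0.64 in venous cells. Lamb1, a laminin beta chain, was higher in Plvap capillary (360 and 381) than in arterial cells (88.4 and 125). Tgfbi, a secreted matrix protein that binds integrins, was higher in venous (227 and 178) than in arterial cells (0 and 17.4), with an adjusted p of 0.00024. It was lower in lymphatic cells with Gbp2 and Gbp4 than in those without (-1.35 ± 0.19). In Plvap capillary cells it was lower with Esm1 than without (-3.10 ± 0.60). Tgfbi was near the floor in that class, at 2.16 (3 UMIs) and 4.80 CPM, so the size of this difference is uncertain. Thbs1 (thrombospondin 1) was higher in lymphatic cells with Gbp2 and Gbp4 (0.73 ± 0.15). Cyr61 (Ccn1, a matrix-bound integrin ligand) was higher in Plvap capillary cells with Esm1 (0.72 ± 0.07).

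The genes whose log2 levels were most like each member's over the 10 sums were found among 4512 genes with at least 50 CPM in a class. The sums share libraries and classes, so Pearson's r is a description. For Itga6 they were Cd36 (r = 0.98), the fatty acid transporter of capillaries, and the transcription factor Ets1 (0.97). For Itga3 they were Bcl10 (0.995), a signalling adaptor, and the cytokine Il6 (0.99). For Itga9 they were Mical2 (0.97) and Myzap (0.96), and for Itgav Add1 and Mrpl13 (both 0.99). For Itgb4 they were Rps6ka3 (0.99) and Syt15 (0.98), for Itga1 Snrnp48 (0.98) and Swt1 (0.96), and for Itgb1 Myadm (0.95) and Cyba (0.92). For Itga5 they were Apold1 (0.95) and Myrip (0.94), for Itgb3 Cd24a (0.94) and Dctn3 (0.93), and for Itga2 Gm12002 and Prnp (both 0.95).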

How the data were processed

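The data are UMI counts per gene and cell from 2 libraries made with a droplet kit that reads the 3' ends of transcripts. Per the submitters' processing notes, bcl2fastq 2.2, Cell Ranger 3.1.0 and build mm10 were used. The deposited matrices hold whole-number counts with no normalization, and the gene and barcode lists are in separate files; the alignment settings are not given in the sources used here. Library 1 held 1026 barcodes with 3806199 UMIs and library 2 held 6302 with 26645476. Low counts limit precision more in library 1, and intervals and floors cover counting error only.

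A cell needed 500 genes or more and a mitochondrial share of its UMIs of 15% or less. Cells meeting both the lymphatic and the blood rule (3 and 96) or both the venous and the arterial rule (28 and 171) were left out, as were cells in no class (60 and 228). No doublet caller was run. UMIs were summed per library and class and tested with edgeR 4.0.16 in R 4.3.3 (quasi-likelihood, robust, TMM scaling, expression filter with a minimum count of 10, library as a term), with p-values adjusted by Benjamini-Hochberg over all genes of a comparison. SEs were taken from the log2 difference and its F statistic. The fit had 4 residual degrees of freedom and a median prior of 46.7, so most of the stated precision of a gene's spread comes from all genes together. Library was a term because each library holds every class. Ratios called unscaled are log2 ratios of CPM with 1 added. Shares of cells have Clopper-Pearson intervals, and levels have exact Poisson intervals. The procedure was tested on simulated counts.

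The members, the gene lists and the classes were chosen with earlier results of these data known. The text names all 10 members; of each other list the 2 largest increases and decreases that passed in lymphatic against blood cells, and the largest of each in other comparisons; and for each member the 2 genes with the highest correlation. Fn1 and Itga5 side by side, and the values of Tln1, were chosen after the values were seen. Coordinates are from GENCODE vM21 (GRCm38), which held 10579 of the 10588 tested genes. Alternatives were DESeq2 1.42.0, no TMM scaling, no filter, no library term, doubled thresholds, stricter cell filters, equal cell numbers, cells meeting 2 rules kept, cells with markers of other types or the deepest 5% left out, a class rule on thinned cells, and adjustment over all 11 comparisons.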

Additional observations from a re-analysis of the deposited data

How the results depend on the processing

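Of 127 results for single members, 78 passed, and over 932 other settings of these, 902 kept direction and call, 29 lost the call and 1 reversed. The reversal was Itgb4 in lymphatic against Gpihbp1/Aqp1 capillary cells, at 0.43 (adjusted p = 0.22) with cells meeting 2 rules kept; the cause was not tested. The calls lost belong to 14 results, 6 of them in Itga1. Beside those given above, equal numbers of cells ended the calls of Itga5 in lymphatic against Gpihbp1/Aqp1 capillary cells (adjusted p = 0.076) and of Itgb3 in venous against Gpihbp1/Aqp1 capillary cells (0.070), in a setting with fewer cells.

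The count of members that passed moved by over 1.5 times in 3 comparisons. Venous against arterial cells fell from 5 to 3 with equal numbers of cells. Arterial against Plvap capillary cells rose from 1 to 2 with the stricter cell filter, without cells carrying markers of other types, and with adjustment over all comparisons, to 3 without TMM scaling and with the class rule on cells thinned to 2000 UMIs, and to 5 with doubled thresholds. Plvap capillary cells with against without Esm1 fell from 1 to 0 with DESeq2 and with no replicate block; the causes were not tested. The fit with no replicate block, which drops library as a term, moved no other count by over 1.5 times. Dropping TMM scaling moved the median of all genes by up to 0.22 (lymphatic against venous) and -0.24 (venous against Gpihbp1/Aqp1 capillary) on the log2 scale, and no called member reversed.

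With either library left out no test has residual degrees of freedom, so those values are ratios with no test. Of the 78 called results, 77 had both libraries on the same side of 0. In the other (Itga2, lymphatic against venous) library 1 had no UMI in either class. These results were called by a fit to the same 2 libraries, so the shared side is no independent support. Of the 127 values with library 2 left out, 99 lay further from the fitted difference than 1 SD between the libraries. With library 1 left out, 27 did. That SD is set by the same 2 ratios, and library 2 holds more UMIs, so these counts do not show how far sizes varied. Depth limits Itga2 throughout, Itga3 and Itgb4 in lymphatic cells and Itgb3 in Gpihbp1/Aqp1 capillary cells, where library 1 held 0 or 1 UMI.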

Other observations

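Itga9 is known from lymphatic valves, and the valve genes Cldn11 and Foxc2 were used to look inside the lymphatic class. Library 1 held 11 lymphatic cells with a UMI of either gene, too few to test, and library 2 held 125. Itga9 stood at 120 and 216 CPM in these cells and at 235 and 199 in the lymphatic cells without (67 and 851 cells), so the libraries differed in direction. Exact Poisson 95% intervals in library 2 were 174 to 265 with and 180 to 219 without. Itgav stood at 168 and 129 with and at 212 and 134 without.

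Venous cells with at least 2 UMIs of Sele and Icam1, adhesion molecules of activated venules, were compared in the same way, without a test because the remainder in library 1 was 11 cells. Itga3 stood at 99.2 and 82.7 CPM in the 59 and 235 cells with these UMIs and at 44.9 (2 UMIs) and 29.1 (4 UMIs) in the 11 and 32 without. Itgb4 stood at 216 and 273 with and at 135 and 262 without, and Itgb1 at 400.5 and 446 with and at 359 and 487 without.

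Cells that met no class rule (60 and 228 cells, with a median of 1350 and 2124.5 UMIs) had Itgav at 62.2 and 37.1 CPM, between the lymphatic and the blood levels. Their Itga1 stood at 606 and 207 and their Itga6 at 342 and 110. Itga2 was at 0 and 19.7 there, the latter above its level in every class of library 2.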
